A study of Mus musculus with 36 samples.

Results

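The Cyp4 family of cytochrome P450 enzymes was examined in the developing mouse liver through 10 of its genes, Cyp4a10, Cyp4a12a, Cyp4a12b, Cyp4a14, Cyp4a31, Cyp4a32, Cyp4b1, Cyp4f14, Cyp4f15 and Cyp4v3. They were taken by symbol, because their products are fatty acid omega-hydroxylases, and all 10 were found among the 21889 genes of the table. All 10 passed the filter on low values, a mean of at least 1 FPKM (a fragment count scaled to exon length and to library size) at 1 age or more, which 11149 genes passed. RNA-Seq was done on livers of 36 male C57BL/6 mice (C57BL/6J in the study's methods), 3 at each of 12 ages: Day -2 (late gestation), Day 0 (at birth, before the first milk), the suckling ages Days 1, 3, 5, 10, 15 and 20, and the ages after weaning at 21 days, Days 25, 30, 45 and 60. No group was treated or carried a mutation, every mouse was male, and each age was represented by different animals, so changes with age are differences between animals. Per the study's methods, collection was timed from birth at Day 0 and Day 1 and took place at a fixed morning hour from Day 3 on. Hour of day can thus not be told apart from age where Day 0 or Day 1 is compared with later ages. The tissue is whole liver, and in bulk RNA fewer cells of a type and less RNA per cell cannot be told apart.

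A P450 of family 4 adds a hydroxyl group to the last carbon of a fatty acid chain, with electrons passed on by the reductase Por. Alcohol and aldehyde dehydrogenases then convert the product to a dicarboxylic acid, which the peroxisome shortens. Cyp4a10 and Cyp4a14 are classical targets of the fatty acid receptor PPAR alpha, Cyp4a12a hydroxylates arachidonic acid and is known for its higher expression in males, and the Cyp4f enzymes inactivate leukotrienes and other eicosanoids. Cyp4v3 is the mouse counterpart of a human gene mutated in a crystalline retinal dystrophy, and Cyp4b1 is best known from lung.

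On the mm9 genome, 7 of the 10 genes lay in a single cluster of 349 kb at chr4:114971651-115320322, in the order Cyp4a12a, Cyp4a12b, Cyp4a14, Cyp4a10, Cyp4a31, Cyp4a32 and Cyp4b1. Cyp4f15 (chr17:32822572-32840297, plus strand) and Cyp4f14 (chr17:33042016-33054023, minus strand) were on another chromosome, and Cyp4v3 was at chr8:46391155-46418570 on the minus strand. Several cluster members are close copies of each other, and how far their reads can be told apart bears on every value given for them. The coding sequence of Cyp4a10 was 96.6% identical to that of Cyp4a31 and 97.2% identical to that of Cyp4a32, and Cyp4a12a and Cyp4a12b were 98.5% identical, differing at 23 coding bases. A stretch of 60 coding bases from coding exon 2 of Cyp4a10, Cyp4a31 and Cyp4a32 (positions 200 to 259 of the coding sequence) and one from coding exon 6 of the Cyp4a12 pair (positions 630 to 689) are shown as the plus strand, which is the coding strand of all 5 genes, to display where they part. Capitals mark the bases at which the genes of a set are not all the same. Each stretch was picked for having the most such bases within a single coding exon. Such bases numbered 9 in the stretch of the Cyp4a10 set, against 77 of 1530 over its coding sequence. In the Cyp4a12 pair they numbered 4, against 23 of 1527.
Cyp4a10 (chr4:115192245-115192304): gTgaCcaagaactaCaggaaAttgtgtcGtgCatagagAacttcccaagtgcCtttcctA
Cyp4a31 (chr4:115237625-115237684): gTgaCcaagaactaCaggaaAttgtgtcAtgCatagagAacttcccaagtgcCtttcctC
Cyp4a32 (chr4:115274875-115274934): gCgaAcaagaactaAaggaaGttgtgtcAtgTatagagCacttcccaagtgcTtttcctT
Cyp4a12a (chr4:114999233-114999292): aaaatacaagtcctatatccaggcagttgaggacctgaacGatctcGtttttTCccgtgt
Cyp4a12b (chr4:115105486-115105545): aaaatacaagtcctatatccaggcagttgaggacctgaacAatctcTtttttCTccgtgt

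Among all stretches of 100 coding bases, the length of 1 read, the share with an exact match in another member was 17.9% for Cyp4a10, 13.8% for Cyp4a31, 20.1% for Cyp4a32 and 41.5% for both Cyp4a12a and Cyp4a12b. It was 0 for Cyp4a14, Cyp4b1, Cyp4f14, Cyp4f15 and Cyp4v3, which held no coding stretch of that length in common with another member. The split between close copies is uncertain, and each comparison was also run on the sum of Cyp4a10, Cyp4a31 and Cyp4a32 and the sum of Cyp4a12a and Cyp4a12b.

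RefSeq promoter windows of 300 bases around the start of a transcript (GRCm38.p6) were read for 5 members, Cyp4a32, Cyp4b1, Cyp4f14, Cyp4f15 and Cyp4v3. Those of Cyp4a10, Cyp4a12a, Cyp4a12b, Cyp4a14 and Cyp4a31 were not analysed here. The windows of Cyp4a32, which rose sharply around birth, and of Cyp4v3, which was highest in adults, are shown, each read along the strand of its gene. Motifs were searched on both strands and are in capitals: the nuclear receptor half-site AGGTCA and its direct repeat with a single base between, the TATA box TATAAA, the GC box CCGCCC, the CCAAT box, and a STAT5 element (TTC and GAA with 3 bases between).
Cyp4a32 (GRCm38.p6, chr4:115600688-115600987, plus strand): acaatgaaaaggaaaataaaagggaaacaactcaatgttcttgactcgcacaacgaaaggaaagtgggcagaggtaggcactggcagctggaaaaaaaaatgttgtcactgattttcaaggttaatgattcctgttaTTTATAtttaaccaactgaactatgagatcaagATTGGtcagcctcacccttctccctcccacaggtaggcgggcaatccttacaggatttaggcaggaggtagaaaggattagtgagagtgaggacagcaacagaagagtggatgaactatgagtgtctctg
Cyp4v3 (GRCm38.p6, chr8:45333114-45333413, minus strand): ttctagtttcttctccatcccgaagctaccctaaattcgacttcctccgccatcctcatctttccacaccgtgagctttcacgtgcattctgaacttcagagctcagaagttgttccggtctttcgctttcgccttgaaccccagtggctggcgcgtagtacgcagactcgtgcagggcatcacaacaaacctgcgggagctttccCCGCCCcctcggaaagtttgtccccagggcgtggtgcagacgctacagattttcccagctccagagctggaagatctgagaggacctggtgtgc

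The Cyp4a32 window held the TATA box and the CCAAT box on the reverse strand, with leftmost bases at -113 and -80 from the transcript start, and the Cyp4v3 window held the GC box at -44. These motifs were in 13.6%, 37.4% and 35.7% of the 32851 windows of that table. The nuclear receptor half-site, present in 16.3% of windows, the direct repeat that contains it, present in 0.0396%, and the STAT5 element, present in 8.3%, had no match in either window. Among the windows not shown, that of Cyp4b1 held a STAT5 element at -187 and a GC box at -120. The window of Cyp4f15 held a GC box and a CCAAT box, and those of Cyp4f14 held the CCAAT box.

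Summed FPKM was between 353712 and 450597, the relative depth estimated from the low values of 1145 genes lay between 0.91 and 1.11, and the lowest correlation between mice of an age was 0.971 on the log2 scale. Markers of other tissues were seen in some mice. Kidney markers (Umod, Slc34a1 and Kap among them) summed to 46.5 FPKM in mouse 2 and 2.17 FPKM in mouse 3 of Day 1 and to at most 0.131 FPKM in the other 34 mice, skeletal muscle markers reached 866 FPKM in mouse 1 of Day 0, and pancreas markers reached 15510 FPKM in mouse 1 of Day 60, 5003 FPKM in mouse 2 of Day 20 and 4618 FPKM in mouse 3 of Day 0. Lung markers, relevant to Cyp4b1, did not exceed 0.72 FPKM in any mouse. Intestine markers were between 1.95 and 455 FPKM, but Vil1 did not pass the filter and the others, Fabp2 and Apoa4, are also made by liver.

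The 10 genes together went from 8.01 ± 0.147 FPKM (SD, n = 3) at Day -2 to 109 ± 46.6 at Day 0 and 1738 ± 333 at Day 1, then down to 389 ± 43.5 at Day 20, and stood at 978 ± 159 at Day 60. Their makeup was different at each end of the series. Cyp4v3 and Cyp4f15 made up 42.2% and 38.1% of the sum at Day -2. Cyp4a14 alone made up 60.8% at Day 1, with 19.3% from Cyp4a10. At Day 60 Cyp4a12a made up 24.6%, Cyp4v3 17.1%, Cyp4a12b 17.03%, Cyp4f14 13.1% and Cyp4a14 9.52%.

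**Figure D1:**
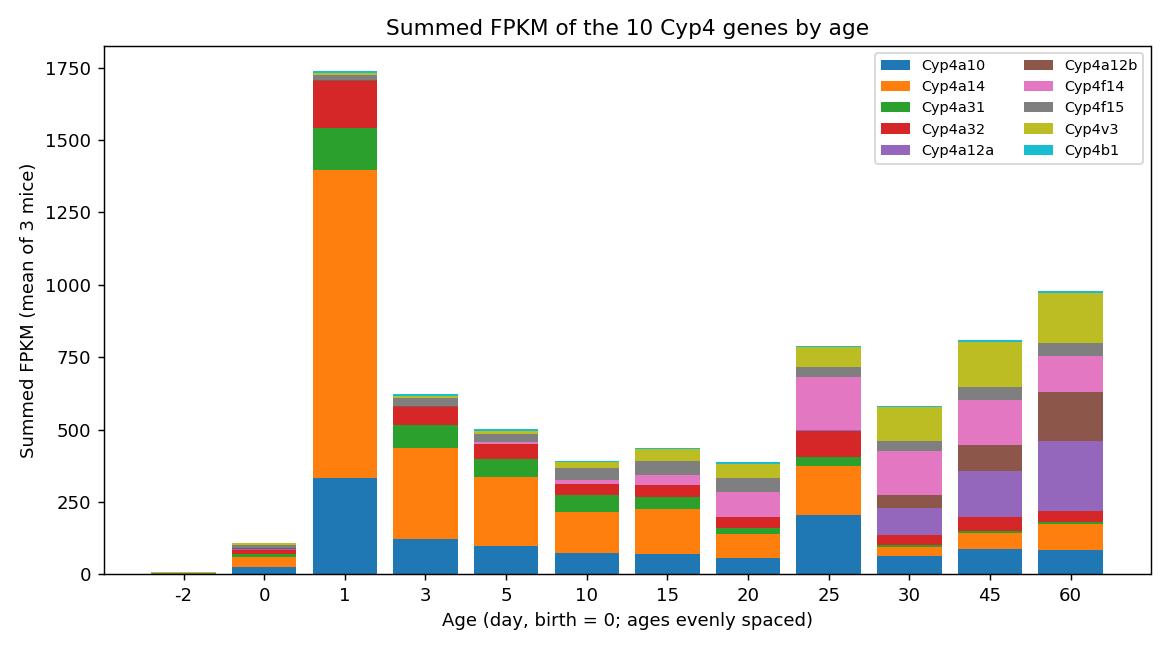
Summed FPKM of the 10 Cyp4 genes (mean of 3 mice, vertical axis) at 12 ages (horizontal axis, evenly spaced), each colour being 1 gene. The tallest bar, at Day 1, sums to 1738 FPKM and is mostly Cyp4a14 (60.8%). In the Day 60 bar of 978 FPKM the largest shares are those of Cyp4a12a, Cyp4v3, Cyp4a12b and Cyp4f14, with smaller shares from the other genes.

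Ages were compared by limma fits to log2(FPKM + 1) that took in all 36 mice and all 11149 genes, and p-values were adjusted by Benjamini-Hochberg. Fold changes on this scale understate the change of genes near 0. All 10 genes differed from Day 60 in at least 1 younger age, against 90.7% of all tested genes. At Day -2 all 10 were below their Day 60 level, where 75.1% of all genes differed from Day 60 in either direction. At Day 0 Cyp4a31 was above and the other 9 below (63.9% of all genes differing), and at Day 1 Cyp4a10, Cyp4a14, Cyp4a31 and Cyp4a32 were above and the other 6 below (65%). Cyp4a14 and Cyp4a31 were above Day 60, and 5 genes below, at Day 3 (66%) and again at Day 5 (65.4%). Only Cyp4a31 was above at Days 10, 15 and 20, with 5, 5 and 3 genes below, where 46%, 27.4% and 15.9% of all genes differed. At Day 25, Cyp4a10, Cyp4a31 and Cyp4a32 were above and 4 genes below (7.42%). At Day 30 only Cyp4a12a and Cyp4a12b still differed among the 10, both lower, where 3.56% of genes did. None of the 10 passed between Day 45 and Day 60, a pair of ages in which 26 of all genes passed (0.233%). Of the 10, Cyp4a12a and Cyp4a12b had an unadjusted limma p under 0.05 (0.0459 and 0.00245). The share of all genes at that looser threshold is not given, and the 0.233% does not apply to it.

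**Figure D2:**
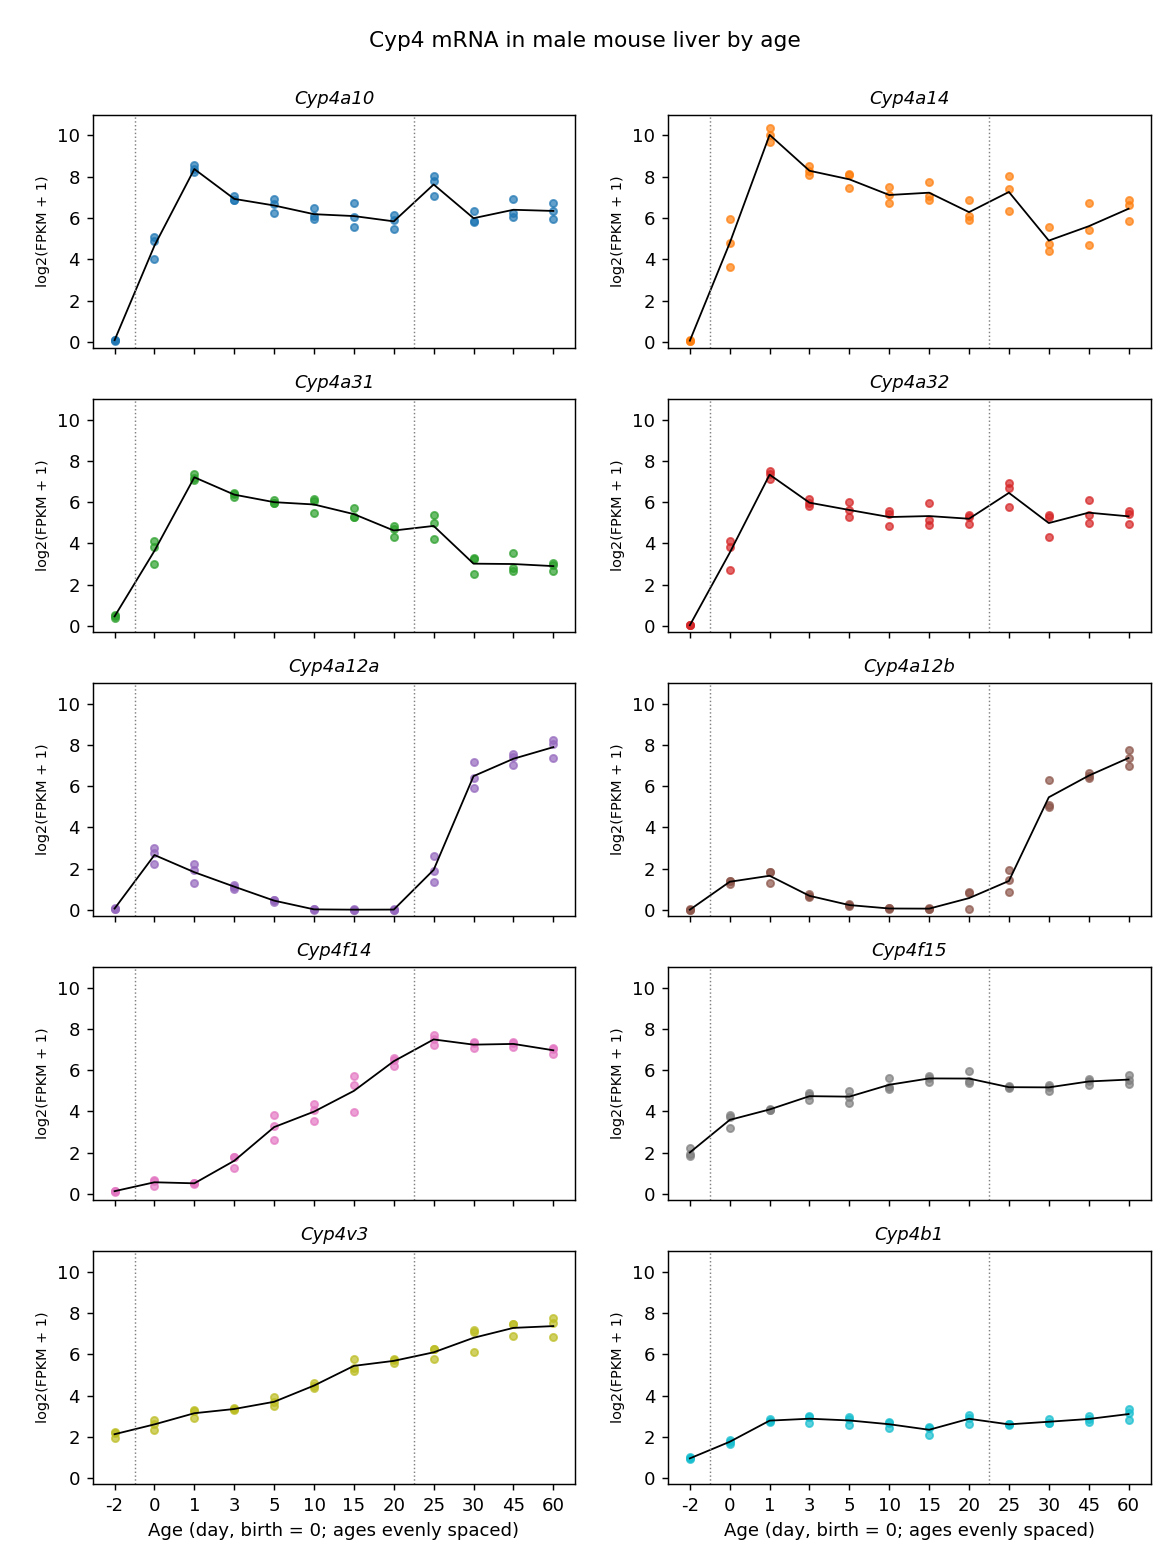
FPKM of each Cyp4 gene, as log2(FPKM + 1), in each of 36 mice (points) with the mean of each age (line) against age in days (ages evenly spaced), dotted lines standing for birth and weaning. Cyp4a10, Cyp4a14, Cyp4a31 and Cyp4a32 are highest at Day 1, Cyp4a12a and Cyp4a12b rise after Day 25, and Cyp4f14 and Cyp4v3 climb over weeks.

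The first comparison addressed birth itself, Day 0 against Day -2. Of the 10 genes, 8 rose, and none of the 10 had a negative fold change, while 13.1% of all tested genes rose and 41.4% fell. The median change of the 10 was 2.09 on the log2 scale, against -0.29 over all genes. Where all libraries were brought to a common upper quartile, the share of rises among all calls moved from 24.1% to 43.5% and the median of all genes to -0.08, and the median of the 10 was 2.14.

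Cyp4a14, which hydroxylates medium-chain and long-chain fatty acids, was at 0.0106, 0.0698 and 0.0286 FPKM in the 3 mice of Day -2 and at 61.3, 11.2 and 26.7 in those of Day 0. The groups did not overlap, although the Day 0 mice differed widely among themselves. The log2 fold change was 4.74 ± 0.48 (SE, limma adjusted p = 5.46e-09). Cyp4a10 went from 0.0349, 0.0787 and 0.0518 FPKM to 33.3, 15.1 and 28.2. In both genes mouse 2 was the lowest of Day 0. The rise of Cyp4a10 was 4.58 ± 0.30 on the log2 scale (limma adjusted p = 5e-13).

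Cyp4a32 and Cyp4a31, close copies of Cyp4a10, rose by 3.51 ± 0.35 and 3.18 ± 0.27 on the log2 scale. Cyp4a31 was the only one of the 4 with values well above those of the others before birth, at 0.443, 0.386 and 0.298 FPKM. The sum of Cyp4a10, Cyp4a31 and Cyp4a32 rose by 5.03 ± 0.30 (limma adjusted p = 7.74e-14). Cyp4a12a, the male-predominant arachidonic acid hydroxylase, was at 0.0476, 0.0557 and 0.0365 FPKM at Day -2 and at 5.74, 6.94 and 3.73 at Day 0, a rise of 2.59 ± 0.27 (limma adjusted p = 8.72e-09). Its copy Cyp4a12b reached 1.68, 1.63 and 1.42 FPKM and also rose, by 1.36 ± 0.26 (limma adjusted p = 8.52e-05).

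Outside the Cyp4a genes, Cyp4f15 rose by 1.58 ± 0.18 and Cyp4b1 by 0.80 ± 0.14. Cyp4v3 changed by 0.48 ± 0.23 (limma adjusted p = 0.0823) and Cyp4f14 by 0.43 ± 0.29 (limma adjusted p = 0.204), neither past the threshold at this scale. With a pseudocount of 0.1 FPKM, which gives low values more weight, both passed (limma adjusted p = 0.0449 and 0.000302), as did Cyp4v3 with a common upper quartile (limma adjusted p = 0.00934) and Cyp4f14 with scaling to the same sum (limma adjusted p = 0.0241). Cell type markers changed between the same ages. All 6 hepatocyte markers rose, with a median of 2.05 on the log2 scale and a sum that went from 7042 to 33040 FPKM, and all 7 erythroid markers fell, with sums of 158100 and 72380 FPKM. Pancreas markers rose too, 4 of 5 tested, from a sum of 1.10 FPKM to between 462 and 4618 FPKM. The part of these shifts in the Cyp4 rise was not tested.

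Other genes of the pathway were read from fixed lists. Of 17 further PPAR alpha target genes tested, 12 rose and 1 fell, where 13.1% of all tested genes rose and 41.4% fell. Among those that rose were Cpt1a (mitochondrial fatty acid import, log2 fold change 2.77, limma adjusted p = 4.32e-08) and Creb3l3 (a transcription factor of fasting, 1.93). Ppara itself rose by 0.89 (limma adjusted p = 0.0411), from 4.33 to 8.68 FPKM. Por, the electron donor of the P450s, rose by 2.78 (limma adjusted p = 5.36e-10), from 26.5 ± 1.28 to 209 ± 122 FPKM. In the peroxisomal list 6 of 16 rose and 2 fell, beside the same shares of all genes.

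The second comparison, Day 1 against Day 0, spans the first day of suckling. Of the 10 genes, 6 rose and 1 fell, against 23.7% and 7.88% of all tested genes. Under a common upper quartile the share of rises among all calls moved from 75.0% to 55.0%. The rise was over 3 on the log2 scale in Cyp4a10, Cyp4a14, Cyp4a31 and Cyp4a32 and at most 1.03 in the other genes.

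Cyp4a14 reached 1330, 1031 and 829.8 FPKM in the 3 mice of Day 1, its highest values at any age. Its mean was 32.2-fold that of Day 0, and the log2 fold change was 5.24 ± 0.48 (limma adjusted p = 2.22e-09). Every Day 1 mouse was above every mouse of all the other ages. Cyp4a10 was at 375, 326 and 294.5 FPKM, 12.99-fold the Day 0 mean (3.71 ± 0.30 on the log2 scale, limma adjusted p = 1.8e-10). Cyp4a32 was at 181, 163 and 138 FPKM and rose by 3.79 ± 0.35. Cyp4a31 was at 166, 142 and 132.5 FPKM and rose by 3.56 ± 0.27. The sum of the 3 close copies rose by 3.75 ± 0.30 (limma adjusted p = 1.78e-10), close to the rise of each copy.

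Cyp4b1 rose by 1.03 ± 0.14, from 2.60, 2.17 and 2.39 to 6.37, 5.70 and 5.62 FPKM (limma adjusted p = 2.51e-06). Cyp4f15 rose by 0.51 ± 0.18 (limma adjusted p = 0.0315), and this call was lost without any 1 of the 3 Day 1 mice (limma adjusted p = 0.0724, 0.0599 and 0.0663) or mouse 2 of Day 0 (limma adjusted p = 0.224), and with a common upper quartile (0.36, limma adjusted p = 0.137). Cyp4a12a moved the other way, with 2.79, 3.71 and 1.501 FPKM at Day 1. Its fall of -0.83 ± 0.27 (limma adjusted p = 0.02) was lost when a single mouse was left out, with a limma adjusted p of 0.0996 without mouse 2 of Day 0 and 0.116 without mouse 3 of Day 1. The sum of Cyp4a12a and Cyp4a12b changed by -0.48 ± 0.29 (limma adjusted p = 0.206). Cyp4a12b, Cyp4f14 and Cyp4v3 did not pass, with changes of 0.29, -0.05 and 0.54, although Cyp4v3 did with scaling to the same sum (limma adjusted p = 0.0442).

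Kidney also expresses Cyp4a genes, and kidney markers were present in 2 of the 3 Day 1 mice. The mouse without them, with a summed kidney level of 0.0293 FPKM, had the highest Cyp4a10, Cyp4a14, Cyp4a31 and Cyp4a32 of its age. With those 2 mice, the Day 0 mouse with muscle markers and the Day 60 mouse with most pancreas markers left out together, an alternative added after the data were seen, the rises were 4.12 for Cyp4a10, 6.18 for Cyp4a14, 3.99 for Cyp4a31 and 4.25 for Cyp4a32. The Day 0 mouse left out had the highest values of its age for the same genes, such as 33.3 FPKM of Cyp4a10 and 61.3 of Cyp4a14. Leaving out these mice could thus only enlarge the rises, and the part of kidney RNA in them was not tested. Day 1 then rests on 1 mouse, assumed to vary like the other groups, and Cyp4a12a was at -0.69. Intestine markers (Fabp2 and Apoa4, both higher at Day 1) went from a sum of 8.77 to 110.3 FPKM, all 7 erythroid markers fell, and the part of these changes in the Cyp4 values was not tested.

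Genes that act after omega-hydroxylation rose on the same day. Of 16 genes for the uptake and shortening of dicarboxylic acids in peroxisomes, 13 rose and none fell at either an adjusted or an unadjusted p under 0.05, with a median of 2.02 on the log2 scale, where 23.7% of all tested genes rose, 7.88% fell and the median was 0.19. The largest changes were in Ehhadh, the bifunctional enzyme of the pathway (3.82, limma adjusted p = 2.75e-09), Crot, which exports the shortened chains as carnitine esters (3.66), and Acaa1b, a thiolase (3.25). Among the alcohol and aldehyde steps, 3 of 7 rose and 1 fell, led by Aldh3a2, the fatty aldehyde dehydrogenase (2.20), with Aldh9a1 at 1.01 and Adh1 lower by -1.27. Of the further PPAR alpha targets, 13 of 17 rose and none fell (also at an unadjusted p), the largest being Acot1 (3.45), Cidec (2.68) and Plin2 (2.42), an acyl-CoA thioesterase and a pair of lipid droplet proteins. Ppara (0.55) and Por (0.40) did not pass.

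**Figure D3:**
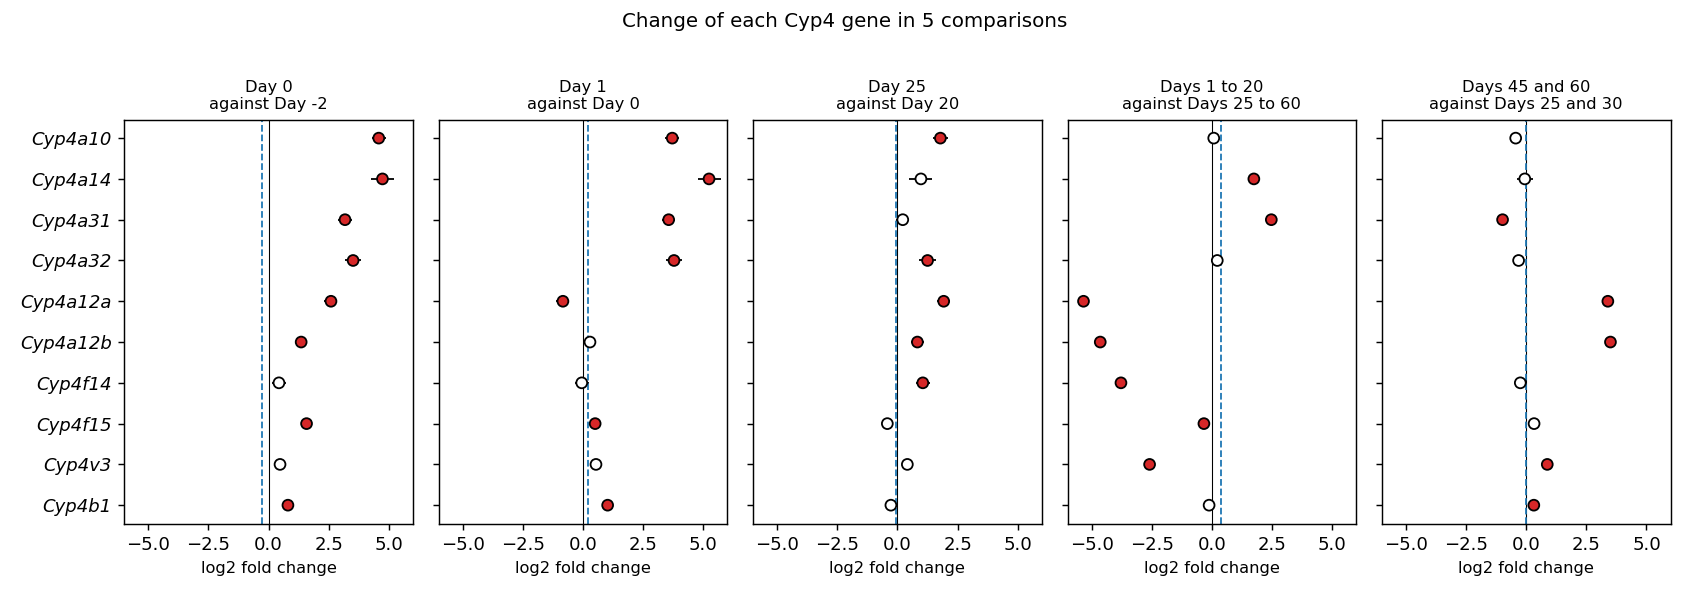
Log2 fold change of each Cyp4 gene (points, with the SE as a bar that is often shorter than the point) in 5 comparisons of ages, filled in red where the limma adjusted p was under 0.05, with the median of all 11149 genes as a dashed blue line. Cyp4a14 has the largest rise at Day 1 (5.24), and Cyp4a12a and Cyp4a12b lie at -5.33 and -4.64 in the comparison of suckling with later ages.

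From Day 1 to Day 20 the genes parted. Cyp4a14 fell with a log2 fold change of -3.75, Cyp4a31 with -2.58, Cyp4a10 with -2.54 and Cyp4a32 with -2.14, each past the threshold (limma adjusted p from 3.48e-09 to 5.76e-06). Part of the fall had taken place by Day 3, when Cyp4a14 was at -1.74 against Day 1, Cyp4a10 at -1.45, Cyp4a32 at -1.36 and Cyp4a31 at -0.84 (limma adjusted p from 0.00147 to 0.0425). Cyp4a12a and Cyp4a12b fell as well, Cyp4a12a to 0.0136, 0.0142 and 0.00535 FPKM at Day 20. Over the same span Cyp4f14 rose by 5.92 ± 0.29, Cyp4v3 by 2.54 ± 0.23 and Cyp4f15 by 1.498 ± 0.18. Cyp4b1 did not pass (0.09 ± 0.14).

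Cyp4f14, an eicosanoid hydroxylase, was at 0.434, 0.438 and 0.419 FPKM at Day 1, at 5.20, 13.1 and 8.67 at Day 5, and at 73.1, 89.3 and 95.8 at Day 20. Ranked by mean log2 value, each of the steps from Day 0 to Day 3, 5, 10, 15 and 20 passed (limma adjusted p from 0.000739 to 0.0404), while Day 25, 45, 30, 60 and 20, the 5 highest ages in that order, did not differ between neighbours. Cyp4v3 was at 3.61, 2.88 and 3.64 FPKM at Day -2 and at 214, 181 and 113.4 at Day 60. Between neighbours in its ranking of ages, 2 of 11 steps passed, Day 5 to Day 10 and Day 10 to Day 15. Cyp4f15 levelled off early, with its highest mean log2 level at Day 15, at 48.5, 42.3 and 52.5 FPKM.

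Weaning fell between Day 20 and Day 25. Of the 10 genes, 5 rose across it and 0 fell by limma, with Cyp4f15 at an unadjusted p of 0.0263 (-0.42, limma adjusted p = 0.177), where 3.94% of all tested genes rose and 3.26% fell. Cyp4a10 went from 69.4, 42.7 and 59.6 FPKM to 263, 132 and 218, with no overlap. Its mean was 3.57-fold higher and its log2 change was 1.79 ± 0.30 (limma adjusted p = 0.000104). Cyp4a32 went from 40.6, 29.7 and 37.1 to 120.5, 52.45 and 100.9 FPKM, a rise of 1.25 ± 0.35 (limma adjusted p = 0.0226) that was lost without mouse 2 or 3 of Day 20 (limma adjusted p = 0.105 and 0.0601) or mouse 1 or 3 of Day 25 (limma adjusted p = 0.12 and 0.0934). The sum of Cyp4a10, Cyp4a31 and Cyp4a32 rose by 1.42 ± 0.30 (limma adjusted p = 0.00202).

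Cyp4a31 did not pass, with 24.8, 18.9 and 28.1 FPKM at Day 20 and 40.3, 17.3 and 30.3 at Day 25 (0.22 ± 0.27, limma adjusted p = 0.736). Cyp4a14 had the widest spread of the family at Day 25, at 261, 79.9 and 169 FPKM against 115, 59.0 and 67.1, and its change of 0.98 ± 0.48 did not pass (limma adjusted p = 0.267). Mouse 2 was the lowest of Day 25 for all 4 genes. Cyp4f14 rose by 1.06 ± 0.29 (limma adjusted p = 0.0188), from the values above to 148, 184 and 210.5 FPKM, a call lost without mouse 1 of Day 20 (limma adjusted p = 0.0827) or mouse 2 or 3 of Day 25 (limma adjusted p = 0.0637 and 0.0898). Cyp4a12a, at 2.71, 1.51 and 5.08 FPKM, rose by 1.93 ± 0.27 (limma adjusted p = 9.08e-06). Cyp4a12b, at 1.73, 0.803 and 2.77 FPKM after 0.0374, 0.740 and 0.819, was just past the threshold (0.83 ± 0.26, limma adjusted p = 0.0461) and overlapped Day 20. That call was lost in 23 of 36 fits that left out 1 mouse, the highest adjusted p being 0.283, without mouse 1 of Day 20, and also with no filter on low values (limma adjusted p = 0.079). The number called was 2 without mouse 3 of Day 25 and 3 without mouse 1 of Day 25, mouse 1 of Day 20 or mouse 2 of Day 20.

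Between Day 25 and Day 30 Cyp4a14 fell with a log2 fold change of -2.36, Cyp4a31 with -1.83, Cyp4a10 with -1.63 and Cyp4a32 with -1.46 (limma adjusted p = 0.00374, 5.49e-05, 0.000971 and 0.0198). Cyp4a14 was at 19.9, 46.4 and 26.1 FPKM at Day 30, its lowest mean of any age after Day 0. For Cyp4a10 the order of the ages by mean log2 level opened with Day 1, Day 25 and Day 3, each different from the next (limma adjusted p = 0.0275 and 0.0382), after which no neighbours differed until Day 20 and Day 0. In the same 5 days Cyp4a12a rose 30.4-fold and Cyp4a12b 26.7-fold by their mean FPKM.

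Fewer changes passed in the pathway lists at weaning, as over all genes (3.94% rose and 3.26% fell). Of the 16 peroxisomal genes 2 rose and 1 fell, and of the 17 PPAR alpha targets 3 rose and 2 fell, with Acot1 at 3.26, Fabp1, a fatty acid binding protein, at 1.44 and Cpt1a at -1.19. Adh4 (1.57) and Aldh1a1 (2.83) rose among the 7 alcohol and aldehyde genes. Por fell with -0.86 (limma adjusted p = 0.0311), while Cyb5b and Cyb5r3, which belong to the cytochrome b5 system, rose by 1.28 and 0.76. Ppara (-0.55) did not pass, and neither did any of the 6 hepatocyte markers, also at an unadjusted p under 0.05. Of other cell types, 1 of 5 endothelial markers fell (median -0.79, 4 lower at an unadjusted p under 0.05), 1 of 6 neutrophil markers (-0.66, likewise 4) and 1 of 5 stellate markers (-0.30), and their part in the Cyp4 values was not tested. Without mouse 2 of Day 20, the one with 5003 FPKM of pancreas markers, 3 of the 10 Cyp4 genes rose at weaning, Cyp4a32 (limma adjusted p = 0.105) and Cyp4a12b (limma adjusted p = 0.0563) no longer passing.

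The 6 suckling ages, Days 1 to 20 (18 mice), were next set against the 4 ages after weaning, Days 25 to 60 (12 mice), as means of the ages. Cyp4a31 and Cyp4a14 were higher during suckling and Cyp4a12a, Cyp4a12b, Cyp4f14, Cyp4v3 and Cyp4f15 lower, that is 2 and 5 of the 10. All genes together leaned the other way, 68.1% being higher and 11.7% lower, with a median of 0.39. With a common upper quartile that median was 0.13 and the share of higher values among the calls moved from 85.4% to 63.7%.

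Cyp4a31 was 2.48 ± 0.12 higher on the log2 scale (limma adjusted p = 8.53e-17), and it fell from 166, 142 and 132 FPKM at Day 1 to 6.74, 7.30 and 5.40 at Day 60. It was the gene of the family whose Day 60 level lay farthest below its Day 1 level, 22.6-fold by the means. Cyp4a14 was 1.75 ± 0.22 higher (limma adjusted p = 3.03e-08), but not throughout suckling. Its means at Days 10, 15 and 20 were 141, 154 and 80.2 FPKM, against 170, 30.8, 56.6 and 90.3 at Days 25, 30, 45 and 60. Days 10, 15 and 20 did not differ from Day 60 (limma adjusted p = 0.273, 0.253 and 0.9). Cyp4a10 and Cyp4a32 did not differ past the threshold (0.08 ± 0.14 and 0.23 ± 0.16), and with a common upper quartile their values turned to -0.33 and -0.18, the first past the threshold (limma adjusted p = 0.0215). The sum of Cyp4a10, Cyp4a31 and Cyp4a32 was higher by 0.51 ± 0.14 (limma adjusted p = 0.0014), beside a median of 0.39 over all genes. The sum of Cyp4a12a and Cyp4a12b was lower, at -5.64 ± 0.13 (limma adjusted p = 2.1e-24). Cyp4a12a was lower by -5.33 ± 0.12, Cyp4a12b by -4.64 ± 0.12, Cyp4f14 by -3.78 ± 0.13, Cyp4v3 by -2.59 ± 0.11 and Cyp4f15 by -0.33 ± 0.08. Cyp4f15 was not lower throughout suckling. Its means at Day 15 (47.7 FPKM) and Day 20 (48.1) were above those of all ages after weaning, the highest being 46.0 at Day 60, while Day 1 was at 16.1. Cyp4b1 did not pass (-0.11 ± 0.06), though it did with a common upper quartile (-0.47) and with scaling to the same sum (-0.18). Markers of most other cell types were higher in suckling, where 68.1% of all genes were, namely 7 of 7 erythroid (median 2.96 on the log2 scale), 6 of 6 neutrophil (4.86), 5 of 6 Kupffer cell (1.19), 4 of 5 endothelial (1.01), 4 of 5 stellate (0.93), 4 of 4 tested cholangiocyte (0.81) and 4 of 5 pancreas markers (2.91). Of the 6 hepatocyte markers 1 was higher and 3 lower (median -0.29). The part of these shifts in the Cyp4 values was not tested.

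The level of close copies relative to each other changed with age too, which was examined after the values were seen and is given as a description with no test. In the 18 mice of Days 1 to 20 the ratio of Cyp4a31 to Cyp4a10 was between 0.357 and 1.01, and in the 12 mice of Days 25 to 60 between 0.0686 and 0.155, with no overlap. From Day 0 on it had its highest mean, 0.819 ± 0.167, at Day 10, and it stood at 0.0808 ± 0.011 at Day 60. At Day -2, where Cyp4a10 did not exceed 0.0787 FPKM in any mouse, it was 7.78 ± 4.27. The ratio of Cyp4a32 to Cyp4a10, by contrast, kept to the ranges 0.446 to 0.695 and 0.344 to 0.673. Cyp4a14 relative to Cyp4a10 went from 3.18 ± 0.366 at Day 1 to 0.470 ± 0.108 at Day 30 and 1.14 ± 0.469 at Day 60. The ratio of Cyp4a12b to Cyp4a12a was 0.571 ± 0.0573 at Day 25 and 0.695 ± 0.0561 at Day 60, and it was not read at Days 10 to 20, where both genes were below 1 FPKM. The FPKM of close copies depends on how shared reads were assigned, and these ratios carry that uncertainty. Cyp4a14 shares no stretch of 100 coding bases with Cyp4a10.

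**Figure D4:**
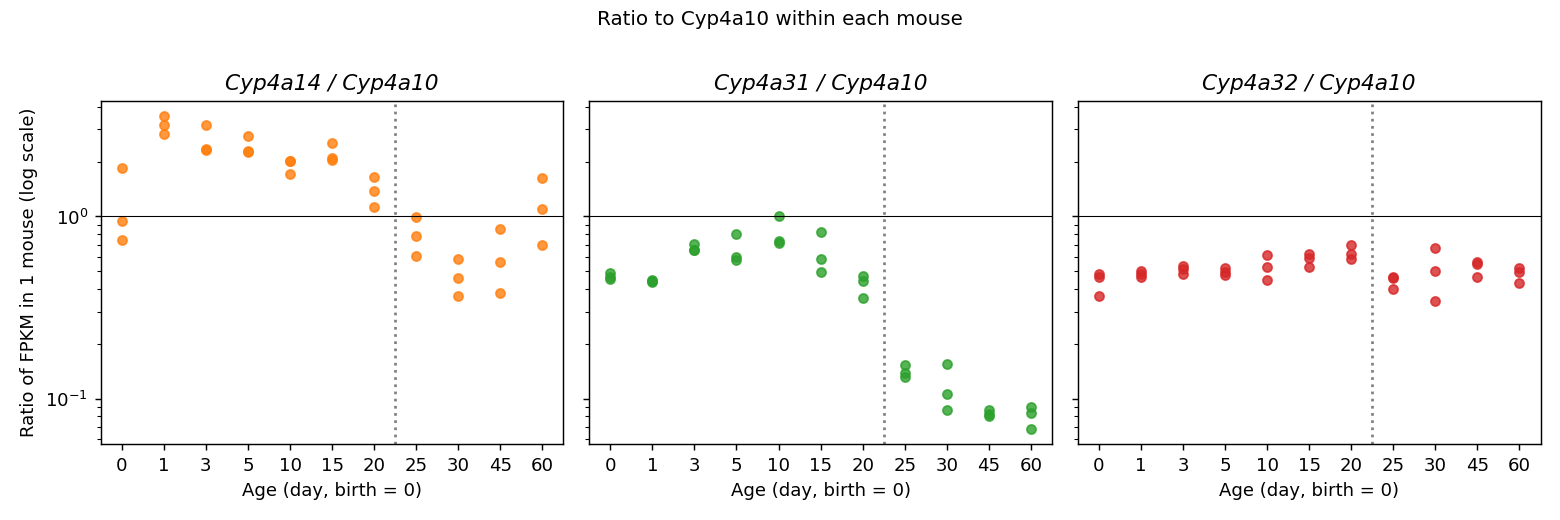
Ratio of the FPKM of Cyp4a14, Cyp4a31 and Cyp4a32 to that of Cyp4a10 within each mouse (points, log scale) from Day 0 to Day 60 (ages evenly spaced), the dotted line standing between Day 20 and Day 25. The Cyp4a31 ratio lies between 0.357 and 1.01 at Days 1 to 20 and between 0.0686 and 0.155 afterwards, while the Cyp4a32 ratio stays between 0.344 and 0.695 over the same ages.

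The last comparison concerned maturation, Days 45 and 60 against Days 25 and 30. Of the 10 genes, 4 rose (Cyp4a12a, Cyp4a12b, Cyp4v3 and Cyp4b1) and 1 fell (Cyp4a31), where 2.69% of all tested genes rose and 5.25% fell. Scaling to the same sum moved the share of rises among all calls from 33.9% to 21.3%. The largest of the 10 changes were those of Cyp4a12a and Cyp4a12b. All 6 hepatocyte markers stayed short of the threshold here, also at an unadjusted p under 0.05, and 3 of 7 erythroid markers fell.

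Cyp4a12a was at 81.9, 59.8 and 141.5 FPKM at Day 30, at 130.5, 184 and 169 at Day 45 and at 303, 261 and 166 at Day 60. Its rise over the comparison was 3.40 ± 0.19 (limma adjusted p = 7.3e-14). Cyp4a12b was at 30.9, 33.2 and 77.3 FPKM at Day 30, at 81.9, 98.8 and 89.7 at Day 45 and at 215, 165 and 123 at Day 60, and rose by 3.50 ± 0.18 (limma adjusted p = 1.33e-14). Neighbouring late ages overlapped for Cyp4a12a and did not differ (Day 45 against Day 30, limma adjusted p = 0.177), whereas Day 45 passed against Day 30 for Cyp4a12b (limma adjusted p = 0.0392). The sum of the pair rose by 3.56 ± 0.21 (limma adjusted p = 1.4e-13). By mean FPKM, Cyp4a12a was 78.6-fold and Cyp4a12b 95.1-fold higher at Day 60 than at Day 25.

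Cyp4a12a had an early phase as well. It was at 5.47 ± 1.62 FPKM at Day 0, at 0.00816 ± 0.00715 at Day 15, its lowest age, and at 244 ± 70.0 at Day 60. The Day 0 level exceeded that of Day 25, 3.10 ± 1.81 FPKM (limma adjusted p = 0.023), although the mice of the 2 ages overlapped. Cyp4a12b had a like early phase, at 2.20 ± 0.668 FPKM at Day 1 and 0.0437 ± 0.0284 at Day 15.

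Cyp4v3 rose by 0.88 ± 0.16 in the same comparison (limma adjusted p = 0.000497). Cyp4b1 rose by 0.32 ± 0.10 (limma adjusted p = 0.0441), a call lost in 12 of 36 fits that left out 1 mouse (highest adjusted p 0.13, without mouse 2 of Day 45), with no filter (limma adjusted p = 0.051) and with scaling to the same sum (limma adjusted p = 0.0931). It was at 6.07, 7.92 and 9.04 FPKM at Day 60, with all 10 of its means between Day 1 and Day 60 inside 4.10 to 7.68. Cyp4a31 fell, with -0.98 ± 0.19 (limma adjusted p = 0.000858). Its means were 29.3 FPKM at Day 25 and 7.31, 7.27 and 6.48 FPKM at Days 30, 45 and 60. Day 60 did not differ from Day 30 (-0.12 ± 0.27, limma adjusted p = 0.85), so the fall rests on Day 25. The sum of the 3 close copies did not pass (-0.45 ± 0.21, limma adjusted p = 0.239). Cyp4a10, Cyp4a14, Cyp4a32, Cyp4f14 and Cyp4f15 did not pass either, with values of -0.44, -0.06, -0.32, -0.25 and 0.33.

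Genes known to be more highly expressed in male liver moved in the same direction as the Cyp4a12 pair. Of 15 such genes, 8 rose between Day 20 and Day 25 (median 1.05 on the log2 scale), 14 rose in maturation (median 1.71), and all 15 were lower during suckling. Of all tested genes 3.94% rose at weaning, 2.69% rose and 5.25% fell in maturation, and 11.7% were lower during suckling. In the first 2 of these comparisons none fell, also at an unadjusted p under 0.05. The largest changes at weaning were in Mup3 (5.26), Mup21 (3.64) and Mup20 (3.59) and the largest in maturation in Mup20 (3.99), Elovl3 (3.12) and Mup21 (2.99). The Mup genes encode pheromone-carrying urinary proteins and are themselves close copies, and Elovl3 elongates fatty acids. Of 11 genes known to be more highly expressed in female liver, 8 fell in maturation and none rose (also at an unadjusted p), among them Sult2a1 (-4.50) and Cyp2b9 (-3.16). At weaning 2 of these 11 rose and 4 fell, where 3.94% of all tested genes rose and 3.26% fell. During suckling 8 were higher and 2 lower, shares near those of all tested genes (68.1% and 11.7%). Ghr, the growth hormone receptor, changed by 0.33 (limma adjusted p = 0.0559), and by limma 0 of the 9 tested genes of its axis passed, with 1 at an unadjusted p under 0.05. Only males were studied, so no difference between the sexes was measured.

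Across all 66 pairs of ages, the number that differed was 55 for Cyp4a31 and Cyp4f14, 54 for Cyp4v3, 51 for Cyp4a12a, 48 for Cyp4a12b, 44 for Cyp4f15, 43 for Cyp4a10, 42 for Cyp4a14, 37 for Cyp4a32 and 31 for Cyp4b1, against a median of 32 over all tested genes. Cyp4b1, the gene with the lowest level at its peak, was the one gene below that median. Of the 11 steps between neighbours in each gene's own ranking of ages, those past the threshold numbered from 2 (Cyp4a12a, Cyp4a12b, Cyp4a14, Cyp4b1 and Cyp4v3) to 5 (Cyp4f14).

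Likeness of pattern was described by Pearson's r over the 12 age means of log2(FPKM + 1), which share libraries and the rise from Day -2, and was not tested. Within the family r was 0.996 between Cyp4a10 and Cyp4a32, 0.99 between Cyp4a12a and Cyp4a12b, 0.965 between Cyp4f14 and Cyp4v3 and 0.938 between Cyp4a10 and Cyp4a14. It was -0.409 between Cyp4a12a and Cyp4a31, which lie in the same cluster. Among genes outside the family, Creb3l3 was the most like Cyp4a10 (0.97) and Cyp4a32 (0.962), Nit1 the most like Cyp4a14 (0.982), Brp44l, a subunit of the mitochondrial pyruvate carrier, the most like Cyp4a31 (0.962), and Mup14 the most like Cyp4a12b (0.981). Serpina4-ps1 was nearest to Cyp4a12a (0.974), Apol9b to Cyp4f14 (0.993), Shpk to Cyp4f15 (0.985), Ugt2a3 to Cyp4v3 (0.996) and Rbpms2 to Cyp4b1 (0.969).

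The mice of an age also varied together in some of these genes. The mouse with the highest Cyp4a10 of its age was also the highest for Cyp4a32 in 11 of 12 ages, for Cyp4a14 in 10, for Cyp4a31 in 8, for Cyp4v3 in 6, for Cyp4a12a, Cyp4a12b, Cyp4f15 and Cyp4b1 in 3 each and for Cyp4f14 in 2. With 3 mice per age, some matches arise between unrelated genes too, and these counts were not tested. Cyp4a31 and Cyp4a32 hold coding stretches in common with Cyp4a10, so their matches carry the uncertainty of how shared reads were assigned. At Day 25, for example, mouse 1 had 263 FPKM of Cyp4a10 and 261 of Cyp4a14, and mouse 2 had 132 and 79.9, while mouse 1 was the lowest for Cyp4f14, at 148 FPKM.

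Of the other Cyp4 genes in the table, 5 passed the filter, Cyp4f13, Cyp4f16, Cyp4f17, Cyp4f18 and Cyp4f39. Cyp4f13 was the only one with a substantial level, going from 3.77 ± 0.393 FPKM at Day -2 to 20.5 ± 3.75 at Day 0 and 35.01 ± 2.92 at Day 60, a rise of 2.16 at birth (limma adjusted p = 4.27e-11). Cyp4f16 and Cyp4f18 were higher in suckling than after weaning, by 1.13 and 0.90 on the log2 scale, the opposite direction from Cyp4f14 and Cyp4f15. Cyp4f18 is known as the neutrophil leukotriene hydroxylase. All 6 neutrophil markers were also higher in suckling (median 4.86), where 68.1% of all tested genes were, and their part in its level was not tested. Cyp4f17 and Cyp4f39 did not exceed 1.69 FPKM in any mouse.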

How the data were processed

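RNA was extracted from whole livers of male C57BL/6 mice (C57BL/6J in the study's methods), and polyadenylated transcripts were sequenced as read pairs. Per the study's methods the authors aligned reads to mm9 with TopHat and estimated FPKM with Cufflinks, with Ensembl 65 as the annotation. The versions, TopHat 1.2.0 and Cufflinks 1.0.3, are those given in the sample records, and the deposited values are per gene symbol. The deposited FPKM values hold no read counts, so intervals for counting error are not given. No scaling beyond FPKM is stated, and a strong change of a few abundant genes can shift the others. Replicates are different mice of an age, from multiple litters.

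FPKM values were used as deposited. Genes reaching 1 FPKM as the mean of some age were kept, transformed as log2(FPKM + 1) and fitted with limma 3.58.1 in R 4.3.3 (1 mean per age, 36 mice, mean-variance trend), adjusting p by Benjamini-Hochberg over the 11149 genes within each comparison, or over all genes and all 11 comparisons with Day 60 for the test of any difference from Day 60. The threshold was 0.05. The fit was tested on simulated data. Named genes were the 10 members, other Cyp4 genes past the filter, up to 3 genes of each list with the largest passing change in a comparison, genes whose role a sentence turns on, and the genes with the nearest pattern. Some genes of the lists were counted in the totals but are not reported here by name. The members, gene lists and comparisons were chosen with earlier results of these data known. Alternatives were a pseudocount of 0.1 FPKM, no filter, a filter at 5 FPKM, a common upper quartile, the same sum (TPM), a replicate block, no trend, close copies summed, leaving out each mouse, and, added after seeing the data, leaving out 4 mice with markers of other organs. Replicate numbers were not used to pair the mice in the main fit. Gene models came from Ensembl 65 (mm9) and promoter sequences from RefSeq (GRCm38.p6). Python 3.11.15 was used for the remaining values.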

Additional observations from a re-analysis of the deposited data

How the results depend on the processing

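Of the fold changes of the 10 genes recomputed under the alternatives, 2151 kept their direction and their side of the threshold, 54 lost a call, 10 gained one and 10 changed sign. With Cyp4a10, Cyp4a31 and Cyp4a32 summed and Cyp4a12a and Cyp4a12b summed, which leaves 7 genes, 5 rose at birth, 0 fell at Day 1, 3 rose at weaning and 0 fell in maturation by limma, the smaller number of genes being part of the difference. Without 4 mice with markers of other organs (mice 2 and 3 of Day 1, mouse 1 of Day 0 and mouse 1 of Day 60), 2 values turned positive. These were Cyp4f14 at Day 1 (0.0063), which then rests on 1 Day 1 mouse, and Cyp4a14 in maturation (0.094), not past the threshold. With a common upper quartile, Cyp4a10 and Cyp4a32 in suckling turned to -0.33 and -0.18. Counts over all genes moved by over 1.5 times under 2 of the alternatives that kept all mice. The common upper quartile gave 2238 rises at birth against 1466, 2902 falls against 4617, 1637 rises at Day 1 against 2640, 1340 falls against 879, and in suckling 5055 higher genes against 7587 and 2877 lower against 1299. A filter at 5 FPKM, which tests fewer genes, gave 2807 falls at birth, 1686 rises at Day 1 and 4472 higher genes in suckling. The cause of the scaling shifts was not tested.

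When each mouse was left out in turn, the genes that fell at Day 1 numbered 0 to 1 and those that rose at weaning 2 to 5. Over the same fits Cyp4f14 at Day 1 ranged from -0.13 to 0.0025, Cyp4a31 at weaning from -0.038 to 0.55 and Cyp4a14 in maturation from -0.34 to 0.17. The range for rises at birth was 8 to 9, and for rises in maturation 3 to 4. Over all genes, rises at Day 1 numbered from 1484 to 2967, falls at Day 1 from 562 to 1036, falls at weaning from 192 to 465 and rises in maturation from 186 to 412.

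A fit with the replicate number as a block gave 8, 6, 5, 2 and 4 higher and 0, 1, 0, 5 and 1 lower genes in the 5 comparisons, and 47 pairs of ages for Cyp4a14 against 42 without it. Over all genes the block gave more calls, such as 3121 rises at Day 1 against 2640 and 518 at weaning against 439. Same-numbered mice of different ages had a median correlation of 0.126 in their deviations from the age means, with a range of -0.68 to 0.829. Of 198 such pairs 104 were over 0.1, and the median for mice of other numbers was -0.0476. What same-numbered mice of different ages may have in common is not stated and was not tested. With 3 mice per age and no read counts, differences of genes below 1 FPKM, such as Cyp4a12a and Cyp4a12b at Days 10 to 20, are not resolved on this scale.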

Other observations

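Of 7 tested genes of leukotriene and eicosanoid handling, 5 were higher in suckling than after weaning and 2 lower, shares near those of all tested genes (68.1% higher and 11.7% lower). The 3 largest changes were those of Alox5ap (2.11 on the log2 scale), which presents arachidonic acid to the lipoxygenase, of Ltb4r1, a leukotriene receptor (1.86), and of Alox5, the lipoxygenase itself (1.10), each past the threshold by limma. Neutrophil markers were higher in the same comparison, 6 of 6, with sums of 1921 FPKM at Day 1 and 1.24 FPKM at Day 60, and their part in it was not tested. Ephx1 and Ephx2, epoxide hydrolases, were the 2 lower genes. At Day 1 against Day 0 these genes rose, Ephx2 by 2.56 and Ephx1 by 1.54, while 4 of the 7 fell (23.7% of all tested genes rose and 7.88% fell).

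In the list of the growth hormone axis and its targets, 4 of 9 tested genes were higher in suckling and 4 lower, where 68.1% of all tested genes were higher and 11.7% lower. Igf1, the growth factor made by liver under growth hormone, was lower (-2.17), Ghr was lower (-1.26), and Cux2, a transcription factor known from female liver, was higher (1.56). Across weaning Igf1 rose by 0.91 and Igfals, its carrier subunit, by 0.84, and Cux2 changed by -0.93, all past the threshold by limma.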
